A study of Mus musculus with 8 samples.

Results

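The 36 genes described here bring amino acids into the cell, make some of them, and load them onto tRNA. They are 18 cytosolic aminoacyl-tRNA synthetases, 9 amino acid transporters, 6 enzymes of serine and one-carbon metabolism, 2 enzymes of proline synthesis, and the asparagine synthetase Asns. They were chosen by gene symbol, and 36 of 36 were found among the 22798 genes of the table, on 16 chromosomes. All 36 passed the filter on low values, with means over the libraries between 1232.9 and 72400.2 pseudo-counts. Expression was measured by RNA-seq in 3T3-L1 cells, an established mouse line of fibroblast-like preadipocytes that hormones can turn into fat cells. The 8 libraries cover 4 stages of the same line in the same serum-containing medium, 2 libraries a stage. Proliferating cells were taken while dividing. Quiescent cells had been kept confluent for 48 h. Both later stages had received a cocktail of insulin (5 µg/µl as the labels give it), dexamethasone (a glucocorticoid, 1 µM) and isobutylmethylxanthine (a phosphodiesterase inhibitor, 0.25 mM). Cells in clonal expansion, the divisions that follow the cocktail, were taken 10 h after it. Differentiated cells were taken 6 days after it, the cocktail having been replaced after 48 h by insulin alone.

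Each cytosolic synthetase joins its amino acid to the matching tRNA and so supplies the ribosome with substrate. Several of these enzymes are held together in one large assembly, the multi-synthetase complex. Transporters of the Slc families bring amino acids in, some by sodium-coupled uptake and some by exchange, and the serine pathway makes serine from a glycolytic intermediate and passes its carbon to the folate cycle. When amino acids run short, or when protein folding fails, the transcription factor ATF4 raises many of these genes through a composite C/EBP-ATF element. MYC, which drives growth, is known to raise many of them as well.

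The values are pseudo-counts: the authors scaled the reads counted per gene with a factor for each library, which does not make the totals equal. They summed to between 122413485 and 151529060 a library, and the original depths and the counting error are unknown. The 7 adipocyte markers summed to 2656411 and 2716361 pseudo-counts at differentiation, and to between 7501 and 10809 in the other 6 libraries. The 4 markers of cycling cells summed to 79599 and 113383 in proliferating cells and 36708 and 34716 in quiescent cells. They summed to 89071 and 78928 during clonal expansion, and to 18952 and 15904 in differentiated cells. The sum does not stand for each marker. By limma's test (adjusted p under 0.05), 2 of the 4 were higher and 0 lower at clonal expansion than at quiescence. Over all genes tested 34.4% were called in each direction there. Against proliferation, clonal expansion had 1 of the 4 higher and 2 lower, with a median log2 fold change of -0.83. Over all genes 32.7% were called higher and 32.1% lower there. Of 5 macrophage markers, Ptprc and Emr1 stood below 3 in every library, and the list summed to 4806 at most, mainly through Lyz2. The endothelial list summed to at most 296.8, the epithelial list to at most 1821, through Krt18 at differentiation, and the muscle list to at most 5732, through Des at differentiation, with Myod1 and Epcam at or near 0. The labels number the libraries as experiments 1 and 2 without saying whether these were separate cultures, so a p-value here covers the spread between the libraries alone, and that spread may be technical. In bulk RNA, fewer cells of a kind and less RNA per cell cannot be told apart, and without strand a gene and an antisense partner cannot either.

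The 36 genes took 0.66% and 0.72% of all pseudo-counts in proliferating cells, 0.519% and 0.495% in quiescent cells, 0.694% and 0.685% during clonal expansion, and 0.731% and 0.631% in differentiated cells. The quiescent libraries were lowest, without overlap with any other stage. Quiescence was the stage of the lowest mean for 24 of the 36 genes (66.7%), where 20% of all genes tested had theirs. It was the stage of the highest mean for 0 of the 36, against 20.3% of all genes tested. Clonal expansion held the highest mean of 16 (44.4%, against 30.5% of all genes tested). Differentiation held that of 12 (33.3%, against 33.2%) and proliferation that of 8 (22.2%, against 16%), so the share at differentiation equalled the background. Of the genes that rose at clonal expansion against quiescence, 14 fell at differentiation, 6 rose again, and 7 did not pass the test there. Over all genes tested 34.4% were called higher at the first step, and 36.8% higher and 36.2% lower at the second. The share of all genes with each pair of calls was not counted, so these counts have no background.

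**Figure D1:**
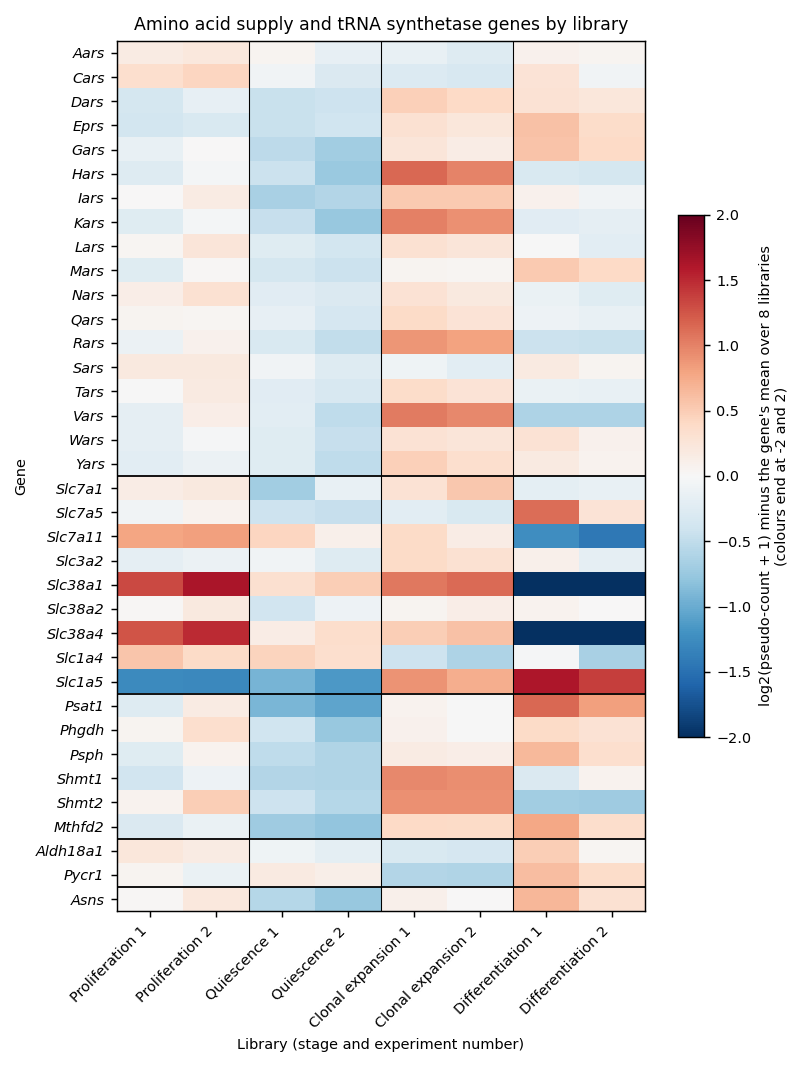
Level of each gene in each library, as log2(pseudo-count + 1) minus the gene's mean over the 8 libraries; rows are genes, grouped from top to bottom as synthetases, transporters, serine and one-carbon enzymes, proline enzymes and Asns, and columns are libraries in the order of the stages. Most rows are blue at quiescence, Hars, Kars, Vars and Rars stand out in red at clonal expansion, and Slc38a1, Slc38a4 and Slc7a11 are dark blue at differentiation.

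At quiescence 20 of the 36 genes were lower than at proliferation and 0 higher, where 11.8% of the 14647 genes tested were called lower and 11.9% higher (limma on log2 values, adjusted p under 0.05). At an unadjusted p under 0.05, limma gave 27 lower and still 0 higher. The median log2 fold change was -0.41, against -0.01 over all genes tested. The 20 were 10 synthetases, 4 transporters, 5 of the 6 serine and one-carbon enzymes, and Asns. Experiment 2 read below experiment 1 for 29 of the 36 genes at quiescence (median -0.14 on the log2 scale) and above it for 30 at proliferation (median 0.16), where it was also the higher in cycling markers. The part of these differences in the result was not tested. Without proliferation experiment 2, 5 of the 20 calls remained (Iars, Slc38a4, Psat1, Shmt2 and Asns). Without quiescence experiment 2, 13 genes were called lower.

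At clonal expansion 27 of the 36 genes were higher than at quiescence and 2 lower, where 34.4% of all genes tested were called higher and 34.4% lower. The median log2 fold change was 0.65, against -0.01 over all genes. The 27 were 15 of 18 synthetases, 5 of 9 transporters, all 6 serine and one-carbon enzymes, and Asns. The 2 that fell were the transporter Slc1a4 and the proline enzyme Pycr1. The libraries at and after clonal expansion had larger totals, and bringing all libraries to the same total moved the median of all genes by -0.232 on the log2 scale. With that scaling 23 genes were higher and 5 lower, and with quantile normalization 23 and 6; over all genes the same total gave 3768 higher and 6302 lower.

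Set against proliferation, clonal expansion showed 15 of the 36 genes higher and 8 lower, where 32.7% of all genes were called higher and 32.1% lower. This comparison depended on scaling, with 10 higher and 13 lower at the same total, which moved the median of all genes by -0.271, and 10 and 11 with quantile normalization. Without clonal expansion experiment 2, 5 genes were lower. Over all genes the same total gave 3183 higher and 6400 lower.

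At differentiation 12 of the 36 genes were higher than at clonal expansion and 16 lower, where 36.8% of all genes were called higher and 36.2% lower, so both shares lay near the background. The median was -0.13, against -0.00 over all genes. Several of the rises were small: 7 genes were called higher without clonal expansion experiment 1, 6 without clonal expansion experiment 2 and 6 without differentiation experiment 1. Against quiescence, differentiation showed 19 higher and 4 lower, where 33.4% of all genes were called higher and 32.9% lower, with a median of 0.32 against 0.01. At the same total, which moved the median of all genes by -0.233, it was 14 and 7, and with quantile normalization 15 and 6; over all genes these gave 3795 higher and 6314 lower, and 4410 and 5602.

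**Figure D2:**
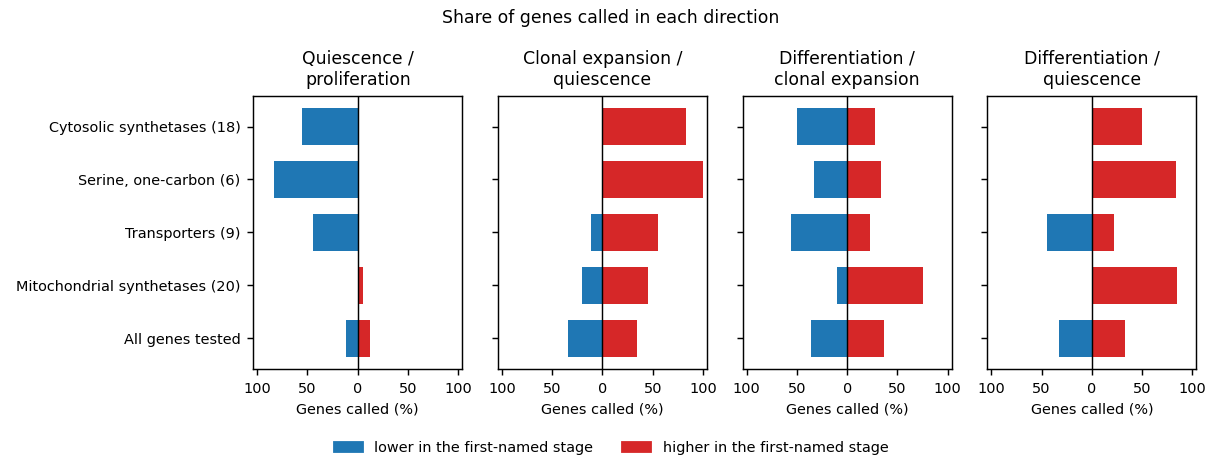
Share of genes called higher (red, to the right) or lower (blue, to the left) in the first-named stage of 4 comparisons, in percent, for 4 gene lists and for all genes tested. Cytosolic synthetases are mostly lower at quiescence and mostly higher at clonal expansion, and split at differentiation against clonal expansion, while mitochondrial synthetases are mostly higher at differentiation.

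The gene starts of 9 members carried the letters of the C/EBP-ATF element, and 6 of these stretches are shown because genes that share the letters took different courses through the stages. Windows from 250 bases before to 50 after the annotated start were taken from RefSeq on GRCm38.p6, which had a window for 26 of the 36 genes. The search was for TGATGNAA on both strands, counted from the gene's own strand, with the start as position 1. It was present in 9 of 26 genes (34.6%), against 4.51% of the 27025 genes with a window and 2.79% of the 11440 of these that were tested. No match overlapped an E-box. The capitals mark the match and each stretch is given from 5′ to 3′ on the strand of the gene.
Asns: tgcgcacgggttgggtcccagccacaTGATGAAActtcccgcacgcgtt
Gars: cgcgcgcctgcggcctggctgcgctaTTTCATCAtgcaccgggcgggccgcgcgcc
Aars: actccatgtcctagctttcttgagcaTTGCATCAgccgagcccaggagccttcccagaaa
Pycr1: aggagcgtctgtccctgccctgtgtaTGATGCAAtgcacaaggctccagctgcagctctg
Tars: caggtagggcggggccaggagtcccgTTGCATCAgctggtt
Slc7a11: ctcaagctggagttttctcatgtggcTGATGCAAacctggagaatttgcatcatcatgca
The Asns stretch lies at chr6:7693210-7693258 on the minus strand, with its match at -23 to -16. The Gars stretch lies at chr6:55037945-55038000 on the plus strand, with its match at -30 to -23. The Aars stretch lies at chr8:111033704-111033763 on the plus strand, with its match at -112 to -105, and the window holds another at 10 to 17. The Pycr1 stretch lies at chr11:120643818-120643877 on the minus strand, with its match at -103 to -96. The Tars stretch lies at chr15:11399659-11399699 on the minus strand, with its match at -15 to -8. The Slc7a11 stretch lies at chr3:50443646-50443705 on the minus strand, with its capitals at -66 to -59. The same stretch holds the letters again on the opposite strand at -47 to -40, printed in lower case. The remaining holders were Iars, Yars and Slc1a4, whose matches lay within 15 bases of the start. Of the 9, Gars, Iars, Tars, Yars and Asns rose at clonal expansion against quiescence, Pycr1 and Slc1a4 fell, and Aars and Slc7a11 did not pass the test. At differentiation against clonal expansion, Aars, Gars, Pycr1 and Asns rose and Iars, Tars and Slc7a11 fell. The calls of Aars, Gars and Asns there were lost without clonal expansion experiment 2 or without differentiation experiment 1. Aars and Gars also lost theirs without clonal expansion experiment 1 or either proliferating library, and Aars without differentiation experiment 2.

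The E-box CACGTG, the letters that MYC and related factors read, was present in 4 of the 26 windows (15.4%), against 8.09% of all genes with a window and 11.2% of those tested. It reads the same on both strands and was counted once. The 2 printed here belong to a synthetase that rose at clonal expansion and a proline enzyme that did not, with the E-box in capitals.
Iars: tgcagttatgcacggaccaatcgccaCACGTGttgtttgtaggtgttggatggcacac
Aldh18a1: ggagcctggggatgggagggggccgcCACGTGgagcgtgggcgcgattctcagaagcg
The Iars stretch lies at chr13:49682035-49682092 on the plus strand with the E-box at -69 to -64, and that of Aldh18a1 at chr19:40588491-40588548 on the minus strand at -59 to -54. The other holders were Aars and Tars, so 3 of the 4 also held the C/EBP-ATF letters. A match is a description of these windows, not evidence of binding.

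Of the 18 cytosolic synthetases, 15 rose at clonal expansion against quiescence and 0 fell (15 and 0 also at limma's unadjusted p under 0.05). Over all genes tested 34.4% were called in each direction. The median log2 fold change of the 18 was 0.65. At the same total 14 of the 18 were called higher and 2 lower, with a median of 0.42. With quantile normalization it was 13 and 3, with a median of 0.37. Over all genes tested these scalings gave 3768 higher and 6302 lower, and 4824 and 4853. The lysyl-tRNA synthetase Kars, which the table places at chr8:114517340-114535205 on mm9, had 25448 and 29109 pseudo-counts in proliferating cells, 21776 and 17690 in quiescent cells, 60371 and 56759 during clonal expansion, and 25660 and 26592 in differentiated cells. The 2 libraries of clonal expansion stood above the other 6 by a wide margin, and differentiation overlapped proliferation. Kars was higher at clonal expansion than at quiescence by 1.58 ± 0.12 on the log2 scale (SE, n = 2 each, limma adjusted p = 2.36e-06), and lower at differentiation than at clonal expansion (log2 fold change -1.16 ± 0.12, limma adjusted p = 1.14e-05).

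The histidyl-tRNA synthetase Hars showed the largest rise among the synthetases, 3.16-fold against quiescence. It had 10961 and 12825 pseudo-counts in proliferating cells, 9703 and 7833 in quiescent cells, 29255 and 25998 during clonal expansion, and 10606 and 10283 in differentiated cells. As for Kars, the high values were those of clonal expansion alone, and its log2 fold change there was 1.66 ± 0.13 (limma adjusted p = 2.42e-06). The valyl enzyme Vars had 18327 and 22618 pseudo-counts in proliferating cells, 17882 and 14533 in quiescent cells, 42307 and 40012 during clonal expansion, and 13391 and 13534 in differentiated cells. Differentiation was its lowest stage, below each quiescent library, and it fell 3.06-fold there against clonal expansion (log2 fold change -1.61 ± 0.13, limma adjusted p = 1.85e-06). The arginyl enzyme Rars had 14317 and 16536 pseudo-counts in proliferating cells, 12541 and 11037 in quiescent cells, 28733 and 27042 during clonal expansion, and 11547 and 11367 in differentiated cells. Rars rose 2.37-fold at clonal expansion and fell 2.43-fold at differentiation, where its values lay between those of the quiescent libraries.

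The isoleucyl enzyme Iars passed the test at all 3 steps. It had 27002 and 29916 pseudo-counts in proliferating cells, 17048 and 17861 in quiescent cells, 38308 and 38304 during clonal expansion, and 28334 and 25483 in differentiated cells. It was lower at quiescence than at proliferation by a log2 fold change of -0.70 ± 0.10 (limma adjusted p = 0.00097), one of 3 genes of the 36 called in that comparison under each of the 18 alternative settings, with Shmt2 and Slc38a4. Its later log2 fold changes were 1.13 at clonal expansion against quiescence and -0.51 at differentiation against clonal expansion.

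Smaller rises at clonal expansion, of 1.35-fold to 1.83-fold against quiescence, were called for Dars (aspartyl), Gars (glycyl), Yars (tyrosyl), Eprs (the joined glutamyl and prolyl enzyme), Wars (tryptophanyl), Tars (threonyl), Lars (leucyl), Qars (glutaminyl), Nars (asparaginyl) and Mars (methionyl). Of these Mars was no longer called at the same total, nor Mars and Nars with quantile normalization. At differentiation against clonal expansion, Lars, Nars, Qars and Tars fell, with log2 fold changes of -0.38 to -0.47, and Lars lost its call without clonal expansion experiment 1 or without differentiation experiment 2. Dars, Eprs, Wars and Yars did not pass the test there.

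Gars and Mars rose again at differentiation. Gars had 43671 and 48549 pseudo-counts in proliferating cells, 33469 and 29695 in quiescent cells, 57185 and 53652 during clonal expansion, and 71282 and 63214 in differentiated cells. Its differentiation libraries were above all others, at 2.13-fold the quiescent level (log2 fold change 1.09 ± 0.11, limma adjusted p = 1.41e-05), though the step from clonal expansion (0.28 ± 0.11, limma adjusted p = 0.048) was not called without either clonal expansion library, either proliferating library or differentiation experiment 1. Mars had 12442 and 14926 pseudo-counts in proliferating cells, 11525 and 10865 in quiescent cells, 15223 and 15037 during clonal expansion, and 21193 and 19475 in differentiated cells. Both differentiation libraries exceeded every other, with a log2 fold change of 0.43 ± 0.11 against clonal expansion (limma adjusted p = 0.00536). Eprs was also highest at differentiation, with 98427 and 84672 pseudo-counts, against 80750 and 76663 at clonal expansion.

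The alanyl, cysteinyl and seryl enzymes, Aars, Cars and Sars, were the 3 synthetases that did not rise at clonal expansion. Aars had 76848 and 79469 pseudo-counts in proliferating cells, 70575 and 60658 in quiescent cells, 61719 and 57123 during clonal expansion, and 72363 and 70926 in differentiated cells. Cars had 14702 and 15671 pseudo-counts in proliferating cells, 11109 and 9539 in quiescent cells, 9692 and 9285 during clonal expansion, and 14020 and 11063 in differentiated cells. Sars had 34284 and 34223, 28352 and 24880, 27959 and 25729, and 33879 and 30871 pseudo-counts in the same order of stages. In all 3 proliferation was the highest stage and clonal expansion overlapped quiescence. Each was lower at clonal expansion than at proliferation, with log2 fold changes of -0.40 for Aars, -0.68 for Cars and -0.35 for Sars (limma adjusted p = 0.00936, 0.00104 and 0.0137). Aars and Sars were not called there without clonal expansion experiment 2 or without proliferation experiment 2, nor was Sars without proliferation experiment 1. With quantile normalization Aars, Cars and Sars were also called lower at clonal expansion than at quiescence, as were Aars and Cars at the same total.

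The 8 members that belong to the multi-synthetase complex (Eprs, Iars, Lars, Mars, Qars, Rars, Kars and Dars) all rose at clonal expansion against quiescence, with a median log2 fold change of 0.78, as did 7 of the 10 outside it. The complex also holds scaffold proteins, counted on a list of 6 related genes with the phenylalanyl enzyme. Of these 6, 5 rose at clonal expansion against quiescence and 5 fell at differentiation against clonal expansion. Over all genes tested 34.4% were called higher in the first of these comparisons and 36.2% lower in the second. The scaffold gene Aimp2 had 14499 and 13686 pseudo-counts at clonal expansion, against 4201 and 3385 at quiescence, a log2 fold change of 1.90. The scaffold gene Eef1e1 rose by 1.88 and the phenylalanyl subunits Farsa and Farsb by 1.48 and 1.52 on the log2 scale (limma adjusted p = 3.92e-06 at most for the 4). Aimp2 and Farsa fell at differentiation, with log2 fold changes of -1.78 and -1.14.

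**Figure D3:**
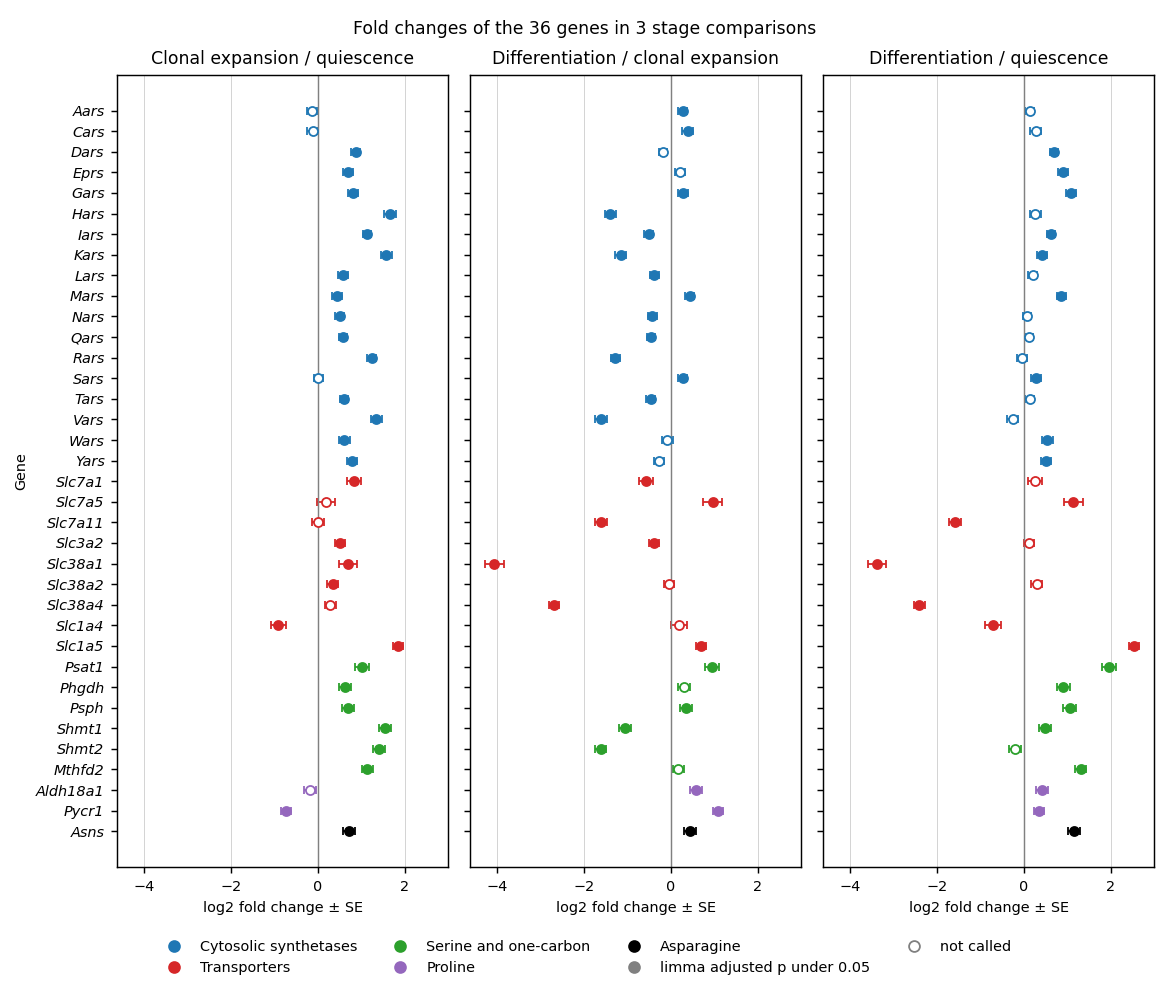
Log2 fold change with its standard error for each of the 36 genes (rows) in 3 comparisons, on the log2(pseudo-count + 1) scale; filled points passed limma's test at an adjusted p under 0.05 and open points did not, and colours give the role. Synthetases lie mainly right of 0 at clonal expansion against quiescence and on both sides of 0 at differentiation against clonal expansion, and the transporters span from -4.07 to 2.54.

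The synthetases of mitochondria, which serve the organelle's own ribosomes, were mostly higher at differentiation. Of 20 such genes, with the amidotransferase subunits among them, 15 rose at differentiation against clonal expansion and 2 fell, where 36.8% of all genes were called higher and 36.2% lower. Against quiescence 17 of the 20 rose and 0 fell, also at limma's unadjusted p under 0.05, with a median log2 fold change of 1.01, where 33.4% of all genes were called higher and 32.9% lower. Of the 18 cytosolic enzymes 5 rose and 9 fell in the first of these comparisons, and 9 rose in the second. The 20 summed to 58303 and 59324 pseudo-counts in proliferating cells, 58895 and 57259 in quiescent cells, 70413 and 71124 during clonal expansion, and 121328 and 122044 in differentiated cells. The cytosolic 18 summed to 467143 and 509796, 400375 and 363130, 631760 and 594823, and 541751 and 498784 in the same order. The sum of the 20 was highest at differentiation and that of the 18 at clonal expansion, in both cases without overlap between libraries. Genes were assigned to these lists by symbol, so any mitochondrial form of Gars or Kars counts among the 18. The phenylalanyl Fars2 rose by 2.12 and the leucyl Lars2 by 1.76 on the log2 scale at differentiation against clonal expansion. At clonal expansion against quiescence 9 of the 20 rose, led by Mars2 and Yars2 at 1.96 and 1.65, and 4 fell. Over all genes tested 34.4% were called in each direction there. At the same total 7 of the 20 rose and 7 fell, where 3768 of the 14647 genes tested were called higher and 6302 lower.

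Among the transporters the glutamine carrier Slc1a5, an exchanger of neutral amino acids, rose at both steps after quiescence. It had 15921 and 15701 pseudo-counts in proliferating cells, 20290 and 17282 in quiescent cells, 71863 and 63778 during clonal expansion, and 118342 and 100454 in differentiated cells. Each of the last stages stood clear of all libraries before it. Slc1a5 was 3.62-fold higher at clonal expansion than at quiescence (log2 fold change 1.85 ± 0.12, limma adjusted p = 1.02e-06) and 5.82-fold higher at differentiation than at quiescence (2.54 ± 0.12, limma adjusted p = 6.6e-08). Its relative Slc1a4, which exchanges alanine, serine and cysteine, went the other way at clonal expansion. Slc1a4 had 13321 and 11788 pseudo-counts in proliferating cells, 12328 and 11447 in quiescent cells, 6825 and 5891 during clonal expansion, and 8941 and 5780 in differentiated cells. The earlier pair of stages lay above the later pair, with a log2 fold change of -0.91 ± 0.18 at clonal expansion against quiescence (limma adjusted p = 0.00125). The fall at differentiation against quiescence was -0.72, and -0.41 without differentiation experiment 2. Per kilobase of transcript, Slc1a5 was 18.8-fold and 24.7-fold the level of Slc1a4 in the differentiated libraries and 1.70-fold and 1.89-fold in the proliferating ones.

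The sodium-coupled neutral amino acid transporters Slc38a1, Slc38a2 and Slc38a4 lie side by side on chromosome 15 of mm9, at chr15:96401849-96473344, chr15:96517823-96530129 and chr15:96825254-96886387, with 0 other genes of the table between them. Slc38a4, which is imprinted in the mouse, had 24780 and 29213 pseudo-counts in proliferating cells, 11496 and 13313 in quiescent cells, 14577 and 15629 during clonal expansion, and 2224 and 2435 in differentiated cells. The differentiated libraries stood far below the rest and the proliferating ones far above. Slc38a4 was 6.48-fold lower at differentiation than at clonal expansion (log2 fold change -2.70 ± 0.12, limma adjusted p = 2.88e-08), and lower at quiescence than at proliferation (-1.12 ± 0.12, limma adjusted p = 0.000249). Slc38a1, the lowest of the 36 per kilobase at each stage, had 1932 and 2395 pseudo-counts in proliferating cells, 960.3 and 1081 in quiescent cells, 1607 and 1689 during clonal expansion, and 121.8 and 77.16 in differentiated cells. It fell 16.8-fold at differentiation against clonal expansion (log2 fold change -4.07 ± 0.21, limma adjusted p = 8.6e-08), more than any other of the 36. Its rise at clonal expansion against quiescence, 0.69, lost its call without quiescence experiment 1 or without clonal expansion experiment 2, and at the same total. Slc38a2, between them on the chromosome and the form that amino acid shortage is known to raise, had 73280 and 82059 pseudo-counts in proliferating cells, 55161 and 66698 in quiescent cells, 74613 and 79252 during clonal expansion, and 75454 and 72685 in differentiated cells. Its quiescent libraries were the lowest, and its differentiated libraries overlapped those of clonal expansion. Its call at clonal expansion against quiescence (0.34 ± 0.12, limma adjusted p = 0.0282) was lost without quiescence experiment 1, at 0.21, without either clonal expansion library, at the same total, at 0.11, and with quantile normalization, at -0.00. Per kilobase, Slc38a2 was 28.6-fold and 25.2-fold the level of Slc38a4 at differentiation and 2.50-fold and 2.37-fold at proliferation.

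Slc3a2 is the heavy chain that pairs with several light chains, of which Slc7a5 exchanges large neutral amino acids such as leucine and Slc7a11 exchanges cystine for glutamate. Slc3a2 had 27479 and 28658 pseudo-counts in proliferating cells, 29624 and 25981 in quiescent cells, 40409 and 38486 during clonal expansion, and 33409 and 27261 in differentiated cells. Clonal expansion was its highest stage and the other 3 overlapped; the log2 fold change of 0.51 against quiescence was not called at the same total or with quantile normalization. Its fall at differentiation against clonal expansion, -0.39, was -0.24 and not called without differentiation experiment 2, nor was it called without clonal expansion experiment 1. Slc7a5 had 18273 and 20115 pseudo-counts in proliferating cells, 14326 and 13822 in quiescent cells, 16471 and 15389 during clonal expansion, and 41598 and 23084 in differentiated cells. Both differentiated libraries were above all others but lay far apart. Slc7a5 was higher at differentiation than at clonal expansion by 0.96 ± 0.21 on the log2 scale (limma adjusted p = 0.00228), and by 0.54 without differentiation experiment 1. Slc7a11 had 5531 and 5676 pseudo-counts in proliferating cells, 4320 and 3430 in quiescent cells, 4197 and 3577 during clonal expansion, and 1355 and 1193 in differentiated cells. It fell 3.05-fold at differentiation against clonal expansion (log2 fold change -1.61 ± 0.14, limma adjusted p = 3.12e-06). The light chains thus took opposite directions at differentiation. Per kilobase, Slc7a5 stood at 0.996-fold and 0.677-fold of Slc3a2 at differentiation, against 0.326-fold and 0.320-fold at clonal expansion, and Slc7a11 at 0.0124-fold and 0.0133-fold, against 0.0317-fold and 0.0284-fold.

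Slc7a1, the carrier of arginine and lysine, had 14676 and 15053 pseudo-counts in proliferating cells, 8151 and 11893 in quiescent cells, 16193 and 19107 during clonal expansion, and 11519 and 11959 in differentiated cells. Quiescence and differentiation overlapped, and clonal expansion was above both. Slc7a1 rose 1.79-fold at clonal expansion against quiescence (log2 fold change 0.84 ± 0.16, limma adjusted p = 0.000995). Its fall at quiescence against proliferation was -0.59 on the log2 scale, and -0.32 and not called without quiescence experiment 1. Its fall at differentiation against clonal expansion, -0.58, lost its call without clonal expansion experiment 2 or without differentiation experiment 1.

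**Figure D4:**
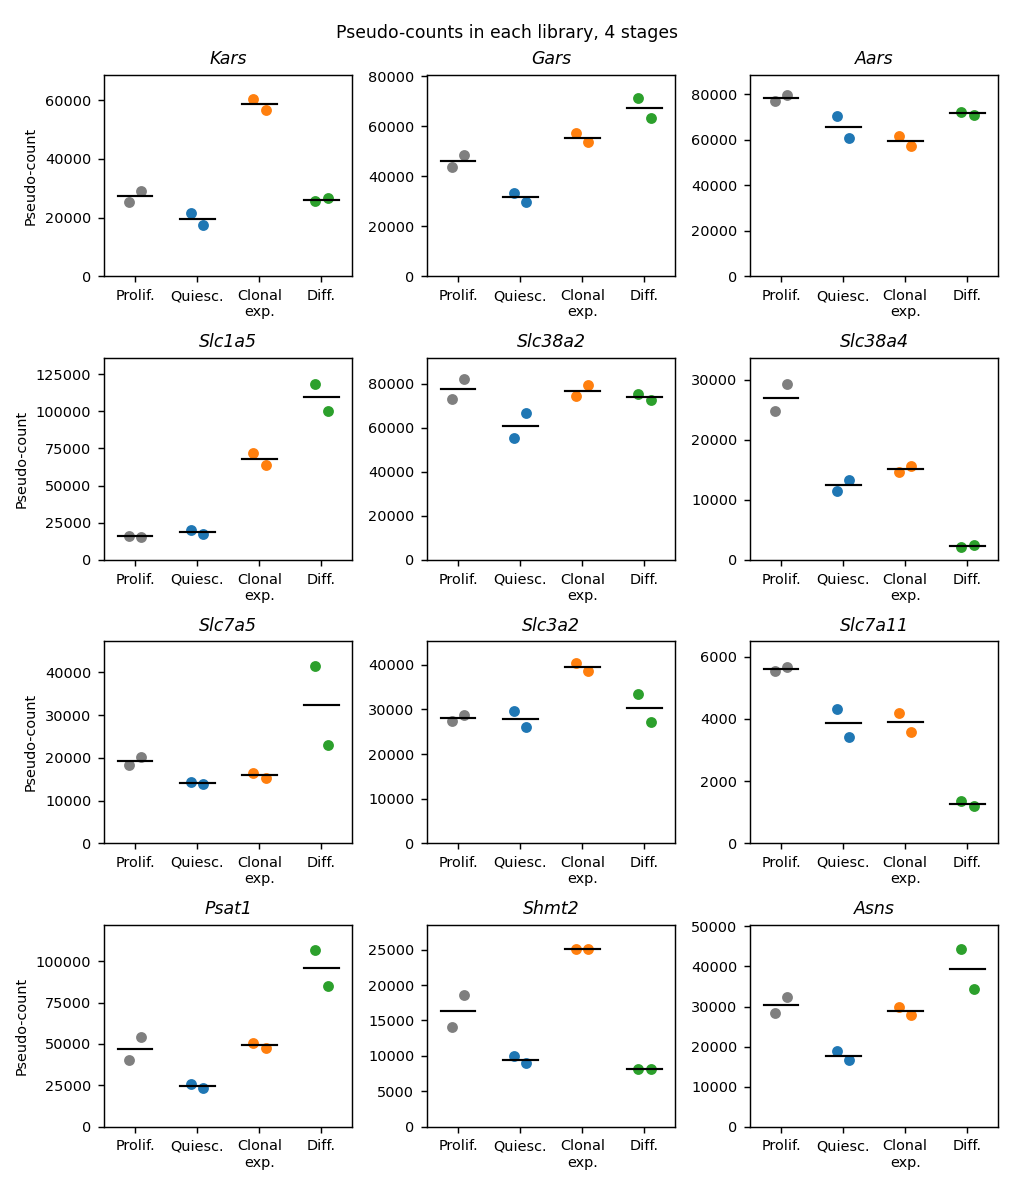
Pseudo-counts of 12 of the genes in each library (points) with the mean of each stage (bars), by stage on the horizontal axis; each vertical axis starts at 0. Kars and Shmt2 peak at clonal expansion, Slc1a5 and Psat1 are highest at differentiation, Slc38a4 and Slc7a11 are lowest there, and the 2 differentiated libraries of Slc7a5 stand at 41598 and 23084.

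Of the 6 serine and one-carbon enzymes, 5 fell at quiescence against proliferation, where 11.8% of all genes were called lower, with a median log2 fold change of -0.66. Without proliferation experiment 2, 2 of the 6 were called lower there. At clonal expansion against quiescence 6 of 6 rose, where 34.4% of all genes were called higher, with a median of 1.08. At differentiation against clonal expansion 2 rose, 2 fell and 2 did not pass the test, near the 36.8% and 36.2% of all genes called higher and lower. Psat1, the aminotransferase of serine synthesis, had 40388 and 54068 pseudo-counts in proliferating cells, 25606 and 23131 in quiescent cells, 50666 and 47678 during clonal expansion, and 106761 and 84918 in differentiated cells. Both differentiated libraries exceeded every other and both quiescent ones were below every other. Psat1 was 3.91-fold higher at differentiation than at quiescence (log2 fold change 1.97 ± 0.16, limma adjusted p = 1.92e-06) and 1.94-fold higher than at clonal expansion. Psph, the phosphatase that completes serine synthesis, had 4070 and 5062 pseudo-counts in proliferating cells, 3377 and 3184 in quiescent cells, 5401 and 5264 during clonal expansion, and 7572 and 6049 in differentiated cells. Its order of stages was that of Psat1, at 2.06-fold the quiescent level at differentiation, while its step from clonal expansion (0.34) was not called without either clonal expansion library or without differentiation experiment 1. Phgdh, the dehydrogenase that opens the pathway, had 10193 and 12499 pseudo-counts in proliferating cells, 7513 and 5842 in quiescent cells, 10457 and 9863 during clonal expansion, and 12928 and 12014 in differentiated cells. Proliferation overlapped both of the last stages, and Phgdh was 1.88-fold higher at differentiation than at quiescence (limma adjusted p = 0.000231).

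The serine hydroxymethyltransferases, which move a carbon from serine to folate, rose at clonal expansion and fell at differentiation. The mitochondrial Shmt2 had 14027 and 18634 pseudo-counts in proliferating cells, 9922 and 8966 in quiescent cells, 25064 and 25086 during clonal expansion, and 8189 and 8117 in differentiated cells. Clonal expansion was highest and differentiation lowest, each without overlap with another stage. Shmt2 was 2.66-fold higher at clonal expansion than at quiescence (log2 fold change 1.41 ± 0.13, limma adjusted p = 7.85e-06) and 3.08-fold lower at differentiation than at clonal expansion (-1.62 ± 0.13, limma adjusted p = 1.78e-06). The cytosolic Shmt1 had 2266 and 2777 pseudo-counts in proliferating cells, 1973 and 1955 in quiescent cells, 5792 and 5675 during clonal expansion, and 2441 and 3115 in differentiated cells. Its peak at clonal expansion was 2.92-fold the quiescent level, and its differentiated libraries enclosed one of the proliferating ones. Per kilobase, Shmt2 stood above Shmt1 in every library, 4.19-fold and 3.25-fold at differentiation and 7.73-fold and 8.38-fold at proliferation. Mthfd2, the mitochondrial folate enzyme next in the path, had 14815 and 16481 pseudo-counts in proliferating cells, 11057 and 10407 in quiescent cells, 23750 and 23571 during clonal expansion, and 30790 and 23027 in differentiated cells. Unlike Shmt2 it did not fall at differentiation, where its libraries lay on both sides of clonal expansion, and it was 2.48-fold higher than at quiescence (limma adjusted p = 1.24e-05). Shmt2 and Mars, which lie 205 kb apart on chromosome 10 with 7 other genes of the table between them, went in opposite directions at differentiation against clonal expansion.

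The proline enzymes did not follow the synthetases. Pycr1, the mitochondrial reductase of the last step, had 3702 and 3280 pseudo-counts in proliferating cells, 4046 and 3871 in quiescent cells, 2373 and 2359 during clonal expansion, and 5470 and 4639 in differentiated cells. Clonal expansion was lowest and differentiation highest, each clear of the other stages. Pycr1 was 1.67-fold lower at clonal expansion than at quiescence (log2 fold change -0.74 ± 0.12, limma adjusted p = 0.000286) and 2.13-fold higher at differentiation than at clonal expansion (1.09 ± 0.12, limma adjusted p = 1.44e-05). Aldh18a1, which starts proline synthesis from glutamate, had 27551 and 26454 pseudo-counts in proliferating cells, 22241 and 20594 in quiescent cells, 19200 and 18698 during clonal expansion, and 33214 and 24294 in differentiated cells. It too was lowest at clonal expansion, and the differentiated libraries lay on both sides of the proliferating ones. Its rise at differentiation against clonal expansion was 0.58 on the log2 scale, and 0.36 without differentiation experiment 1.

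Asns, which makes asparagine from aspartate and glutamine, had 28430 and 32363 pseudo-counts in proliferating cells, 18833 and 16562 in quiescent cells, 29956 and 27958 during clonal expansion, and 44448 and 34452 in differentiated cells. Quiescence was lowest and differentiation highest, and clonal expansion overlapped proliferation. Asns fell at quiescence against proliferation (log2 fold change -0.78 ± 0.14, limma adjusted p = 0.003), rose at clonal expansion against quiescence (0.71 ± 0.14, limma adjusted p = 0.000983), and was 2.22-fold higher at differentiation than at quiescence (limma adjusted p = 3.71e-05). Its step from clonal expansion to differentiation (0.44) was 0.25 and not called without differentiation experiment 1, and not called without clonal expansion experiment 2.

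Compared per kilobase of the longest coding transcript, Gars was the highest of the synthetases at proliferation (19374), quiescence (13270) and differentiation (28256), and Kars at clonal expansion (26754). The lowest was Wars at proliferation and quiescence, Cars at clonal expansion (2945) and Vars at differentiation (3254). The synthetases therefore spanned 9.08-fold at clonal expansion and 4.73-fold at quiescence. Among the transporters Slc38a2 was highest at proliferation and quiescence and Slc1a5 at clonal expansion (24537) and differentiation (39580). Psat1 led the serine and one-carbon enzymes at each stage, with 36622 per kilobase at differentiation, and Shmt1 was the lowest at each.

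The regulators of these genes did not share one course. Atf4, whose protein is controlled mainly through its translation, had 37359 and 43372 pseudo-counts in proliferating cells, 41653 and 37152 in quiescent cells, 43865 and 39913 during clonal expansion, and 44343 and 38460 in differentiated cells. All stages overlapped, and Atf4 passed the test in 0 of the 5 comparisons, with limma adjusted p between 0.535 and 0.896 and the lowest unadjusted p at 0.481. Myc had 4695 and 7908 pseudo-counts in proliferating cells, 3062 and 2794 in quiescent cells, 31529 and 30707 during clonal expansion, and 10325 and 11533 in differentiated cells. Myc was highest at clonal expansion and lowest at quiescence, without overlap between stages, with a log2 fold change of 3.41 ± 0.20 against quiescence (limma adjusted p = 5.22e-07) and -1.51 at differentiation against clonal expansion. Cebpb, which encodes a partner of ATF4 and an early regulator of fat cell formation, had 27886 and 21541 pseudo-counts at clonal expansion, against 5478 and 4051 at quiescence.

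Ddit3, Trib3 and Chac1, which ATF4 is known to raise, fell at clonal expansion against quiescence. Ddit3, a stress-induced transcription factor, had 6188 and 5391 pseudo-counts in proliferating cells, 8610 and 6817 in quiescent cells, 2330 and 2243 during clonal expansion, and 19217 and 10561 in differentiated cells. Trib3, a pseudokinase, had 8478 and 7207, 7214 and 6644, 1828 and 1634, and 20882 and 13004 in the same order. Chac1, which degrades glutathione, had 4038 and 4968, 3076 and 2714, 618.5 and 643.4, and 5711 and 2993. In all 3 clonal expansion was lowest without overlap, and differentiation experiment 1 was well above experiment 2. Against quiescence, clonal expansion showed log2 fold changes of -1.74 for Ddit3, -2.00 for Trib3 and -2.19 for Chac1 (limma adjusted p = 9.12e-05, 9.86e-06 and 2.91e-05), and differentiation against clonal expansion 2.64, 3.25 and 2.71. Of the 26 stress-response regulators and targets listed, 7 rose and 10 fell at clonal expansion against quiescence, where 34.4% of all genes were called in each direction. Of the 26, 15 rose and 5 fell at differentiation against clonal expansion, where 36.8% of all genes were called higher and 36.2% lower. Differentiation experiment 1 was also the higher for 31 of the 36 genes, Slc7a5 among them; the part of this difference in their values was not tested.

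**Figure D5:**
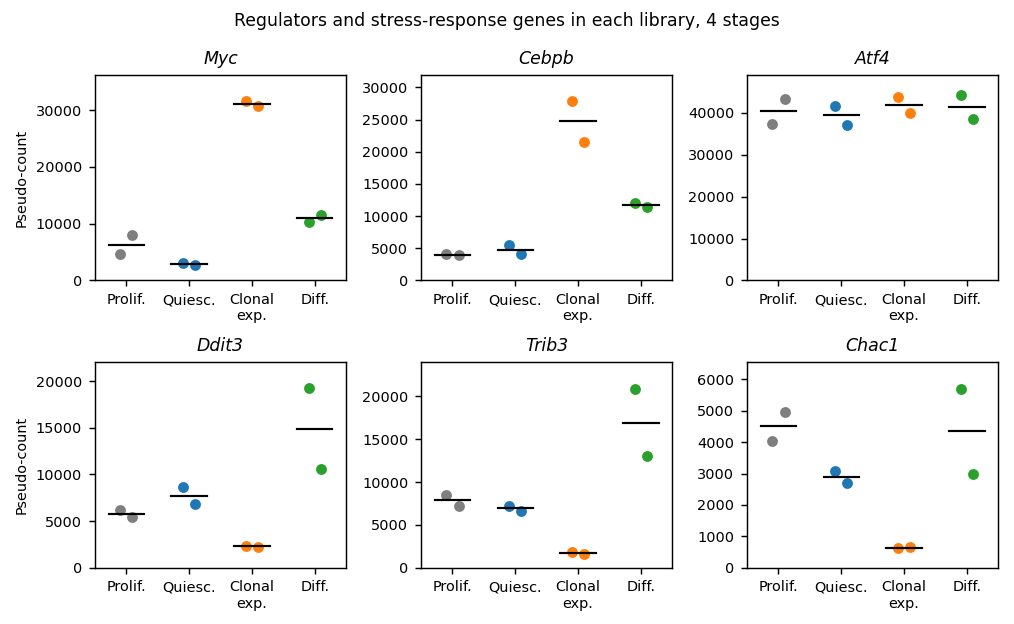
Pseudo-counts of 6 regulators and stress-response genes in each library (points) with the mean of each stage (bars); each vertical axis starts at 0. Myc and Cebpb are highest at clonal expansion, Atf4 overlaps across all stages, and Ddit3, Trib3 and Chac1 are lowest at clonal expansion, with 2 differentiated libraries that lie apart.

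Genes through which the growth kinase mTORC1 senses amino acids passed limma's test at quiescence against proliferation in 0 of 19 cases, and in 2 at an unadjusted p under 0.05, where 11.9% of all genes were called higher and 11.8% lower. At clonal expansion against quiescence 4 rose and 5 fell, where 34.4% of all genes were called in each direction. The kinase gene Mtor had 17249 and 18904 pseudo-counts at clonal expansion, against 9183 and 11065 at quiescence, and its partner Rptor rose by 0.59 on the log2 scale. Sesn3, of the sestrin family that holds mTORC1 back, fell there by 1.68. Of the 19, 9 rose and 1 fell at differentiation against clonal expansion, where 36.8% of all genes were called higher and 36.2% lower. At the same total, clonal expansion against quiescence gave 3 of the 19 higher and 10 lower. Over the 14647 genes tested that scaling gave 3768 higher and 6302 lower.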

How the data were processed

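The deposited table gives a signal per gene in each of 8 libraries, pseudo-counts that the authors made in edgeR with relative log expression factors, per the table's own title. Libraries were unstranded, with single reads of 100 nt, per the labels' protocols. CASAVA 1.8.2 and edgeR, with the build mm9, are named per the submitters' processing notes; the aligner, the gene models and the treatment of reads that match several places are not given in the sources used here. These values do not step in whole reads, so no count test was run here, and counting error has no interval.

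Of 22798 genes, the 14647 whose mean over the libraries reached 10 were tested. R 4.3.3 with limma 3.58.1 modelled log2(pseudo-count + 1) by stage in one fit of the 8 libraries, letting the variance follow a trend with the mean; the residual degrees of freedom were 4, or 9.778 once moderated. Tests were two-sided, adjusted by Benjamini-Hochberg over all genes tested, with a threshold of 0.05; log2 fold changes had a median standard error of 0.142. Fold changes are on the log2(pseudo-count + 1) scale, which understates those of low genes. The fit was checked on simulated data. Lengths are those of the longest coding transcript in GENCODE M21. Tables and plots were made with Python 3.11.15, pandas 2.3.3, numpy 2.4.6 and matplotlib 3.10.9.

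The members and the other lists were chosen with earlier results of these data known. Every member could be named, and of each other list up to 3 genes per direction and comparison, the largest changes among those called whose higher stage averaged 200 or more, beside a fixed set that included Atf4, Ddit3, Trib3, Myc, Eef1e1, Farsa and Farsb; some genes that the rule names are not reported here. Alternatives were other pseudocounts, filters, scalings and variance models, only the stages compared, a replicate block, a length trend removed, and each library left out.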

Additional observations from a re-analysis of the deposited data

How the results depend on the processing

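Of 123 fold changes called among the 36 genes, 76 were called in the same direction under each of 18 alternatives, 47 lost the call under some, and 1 of these reversed: Slc38a2 at clonal expansion against quiescence, -0.002 with quantile normalization. By comparison, the genes called throughout numbered 3 at quiescence against proliferation, 24 at clonal expansion against quiescence, 19 at differentiation against clonal expansion, 17 at differentiation against quiescence and 13 at clonal expansion against proliferation. Quiescence against proliferation depended most on the settings. There, 953 genes were higher and 804 lower with no filter, and 972 and 970 with only the 4 libraries of those stages, against 1740 and 1732; leaving out 1 library gave 660 to 1686 higher and 644 to 1850 lower. Of the 36, 4 were lower with no filter, 10 without the variance trend and 11 with those stages only, and 5 to 23 with 1 library left out. At the same total, 5 of the 36 were lower at clonal expansion against quiescence, 7 at differentiation against quiescence, and 13 at clonal expansion against proliferation, where 3183 of all genes were higher; with quantile normalization 6 were lower at clonal expansion against quiescence. At differentiation against clonal expansion 6 of the 36 were higher with no filter, and 6 to 13 with 1 library left out; 5 to 9 were lower at clonal expansion against proliferation with 1 left out. For these values the cause was not tested. Of 57 fold changes not called, 36 were called under some setting. With a replicate block 22 of the 36 were lower at quiescence against proliferation, and no count changed by over 1.5 times. Deviations of same-numbered libraries from their stage means correlated at 0.354 between quiescence and clonal expansion and 0.134 between quiescence and differentiation. Other pairs of stages gave 0.013 to 0.072. The experiment numbers were not taken as pairs, though quiescence and clonal expansion shared part of their difference between experiments. With a replicate block 28 of the 36 were higher and 2 lower at clonal expansion against quiescence, against 27 and 2 in the main fit. In these data 2 libraries a stage and unknown read depths limit the precision. Quiescence experiment 2 differed from experiment 1 by -0.267 (log2) among the shortest 20% of genes and 0.262 among the longest 20%. At clonal expansion these differences had the same direction, at -0.124 and 0.089. With the length trend removed, 22 of the 36 were lower at quiescence than at proliferation.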

Other observations

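Amino acid enzymes outside the 36 genes included some of the steepest changes. Glul, which makes glutamine, had 2990 and 2565 pseudo-counts in quiescent cells, 63080 and 55954 during clonal expansion, and 147842 and 162869 in differentiated cells. The rise at differentiation against quiescence was 5.81 ± 0.11 on the log2 scale (limma adjusted p = 8.54e-10). Ass1, of arginine synthesis, had 4271 and 3475 in quiescent cells, 21794 and 21557 during clonal expansion, and 1251 and 1225 in differentiated cells. The folate enzymes Mthfd1 and Mthfd1l, with Tyms of thymidylate synthesis, rose at clonal expansion and fell at differentiation, as Shmt2 did. The cytosolic folate dehydrogenase Aldh1l1 had 16250 and 17513 pseudo-counts at differentiation, against 14.51 and 2.797 at clonal expansion, and Prodh, which degrades proline, 13284 and 14521 against 234.9 and 297.6. Of 34 such genes, 19 rose and 10 fell at clonal expansion against quiescence, where 34.4% of all genes were called in each direction. At differentiation against clonal expansion 14 of the 34 rose and 15 fell, near the 36.8% and 36.2% of all genes called higher and lower.

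Of 22 other amino acid transporters tested, 14 rose and 5 fell at differentiation against clonal expansion, where 36.8% of all genes were called higher and 36.2% lower. Slc36a2, a proton-coupled carrier of small amino acids, had 5858 and 5863 pseudo-counts at differentiation, against 6.574 and 8.29 at clonal expansion. Slc16a10, which carries aromatic amino acids, had 1193 and 1159, against 0 and 2.285. Slc38a6, of the Slc38 family but on another chromosome, had 6213 and 6912 at differentiation, against 814.1 and 733.5 at clonal expansion, while Slc38a1 and Slc38a4 fell. The taurine carrier Slc6a6 had 140383 and 161687 at clonal expansion, against 50164 and 60648 at quiescence.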
